A study of Danio rerio with 15 samples.

Results

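SNAPc helps start the transcription of the small nuclear RNAs of the splicing machinery, and TFIIIB that of U6 RNA among them and of other small RNAs. SNAPc is the small nuclear RNA activating protein complex, and TFIIIB is the initiation factor of RNA polymerase III. Their genes were followed in zebrafish embryos that carry a mutation of sf3b1, the core subunit of the spliceosome's branch point recognition complex. Members were the rows of the count table whose Ensembl gene name starts with snapc or is brf1a, brf1b, brf1, brf2 or bdp1. There were 10 such rows among 32105, of which 9 passed the filter on low counts that left 18020 genes for testing. snapc4 and brf2 were chosen by their much higher counts in mutants, so those differences are given as a description without a test. The other 8 were taken by name only.

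SNAPc binds the proximal sequence element, a short motif upstream of small nuclear RNA genes, and is used both by RNA polymerase II for most spliceosomal RNAs and by RNA polymerase III for U6 RNA. TFIIIB holds RNA polymerase III at its start sites and consists of the TATA-binding protein TBP, BDP1 and a BRF subunit. In human cells BRF1 serves transfer RNA and 5S RNA genes, and BRF2 serves U6 RNA genes and other genes with an upstream promoter. The small RNAs that these factors make were not analysed here, because the libraries were primed on poly(A) tails.

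The cells were kdrl-positive cells from embryos at 28 hours post fertilization, kdrl being a receptor for vascular endothelial growth factor. Stat3, which carries cytokine signals to the nucleus, was overexpressed in every embryo, in a constitutively active form (CA-Stat3) or as the wildtype protein (WT-Stat3). The labels give neither the sf3b1 allele, nor the alleles of the siblings, nor the promoter of the constructs. There were 15 libraries. The mutants, the siblings and the wildtypes each had 3 with CA-Stat3 and 2 with WT-Stat3. Nothing in the labels ties a library to its own clutch, so the p-values cover the spread between these libraries only.

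Library totals were 3625121 to 8170371 counts, and mutant WT-Stat3 replicate 2 was the shallowest. Levels are given as CPM, counts scaled to a common library size, after scaling by the trimmed mean of M-values (TMM). SF3B1 lay between 82.0 and 108 CPM in the 5 mutant libraries, 157 and 172 CPM in the 5 sibling libraries and 170 and 208 CPM in the 5 wildtype libraries. The endothelial markers kdrl and cdh5 were present in every library, and of 14 rows tested for the endothelial list 2 were higher and 1 was lower in mutants than in wildtypes. Compared with siblings, 5 of these 14 were higher and 0 lower. Markers of other cells also moved. Of 14 leukocyte rows tested 13 were lower in mutants than in wildtypes and 12 were lower than in siblings. Summed levels were 140.8 to 577.1 CPM in mutants, 1089.8 to 2899.6 CPM in siblings and 1320.8 to 2651.4 CPM in wildtypes. Of 10 erythroid rows tested 7 were higher in mutants than in wildtypes and 4 were higher than in siblings. Their summed levels were 1210.6 to 3030.0 CPM in mutants, 770.9 to 2601.0 CPM in siblings and 567.4 to 1395.3 CPM in wildtypes. In other tissues 7 of 8 mesenchymal, 6 of 9 neural, 3 of 10 muscle and 2 of 6 epidermal rows were lower in mutants than in wildtypes. The counts against siblings were 8 of 8, 8 of 9, 7 of 10 and 1 of 6 in the same order. Of all genes tested, 13.9% were higher and 14.8% lower than in wildtypes, and 12.4% were higher and 13.9% lower than in siblings. Summed levels were 316.9 to 616.3 CPM in mutants, 616.3 to 2564.2 CPM in siblings and 1081.9 to 1937.3 CPM in wildtypes for mesenchymal rows, and 121.6 to 301.1 CPM in mutants, 402.2 to 668.6 CPM in siblings and 203.1 to 432.5 CPM in wildtypes for neural rows. Muscle rows summed to 119.6 to 457.5 CPM in mutants, 95.9 to 5381.0 CPM in siblings and 392.3 to 1100.8 CPM in wildtypes. Epidermal rows summed to 293.1 to 885.0 CPM, 323.1 to 1891.5 CPM and 447.2 to 1599.7 CPM in the same order, and for both tissues the ranges of the genotypes overlapped. No leukocyte or erythroid marker found in the table was at 0 in all libraries. The part of these markers in the results was not tested, and in bulk samples fewer cells of a type and less RNA per cell cannot be told apart.

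snapc4 (ENSDARG00000067673) was the SNAPc row with the largest difference. It encodes the largest subunit, which in human cells carries the Myb-type repeats that contact DNA. Its levels were 195, 212 and 226 CPM in the mutant CA-Stat3 libraries and 230.3 and 199 CPM in the mutant WT-Stat3 libraries. They were 27.0, 19.6 and 22.7 CPM in sibling CA-Stat3, 24.1 and 19.9 CPM in sibling WT-Stat3, 21.0, 17.8 and 15.0 CPM in wildtype CA-Stat3, and 17.9 and 15.3 CPM in wildtype WT-Stat3 libraries. All 5 mutant libraries lay far above all 10 others, and the lowest mutant library held 571 counts of it. The mean was 213 ± 15.6 CPM in mutants, 22.7 ± 3.08 CPM in siblings and 17.4 ± 2.44 CPM in wildtypes (SD, n = 5 each). The log2 fold change was 3.63 ± 0.15 (SE) for mutants against wildtypes, a 12.3-fold difference, and 3.24 ± 0.15 against siblings, a 9.42-fold difference. Among the 6 groups the order from the highest mean was mutant WT-Stat3, mutant CA-Stat3, sibling CA-Stat3, sibling WT-Stat3, wildtype CA-Stat3 and wildtype WT-Stat3. Only the step between the mutant and the sibling groups separated neighbours in that order without overlap of their libraries.

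**Figure D1:**
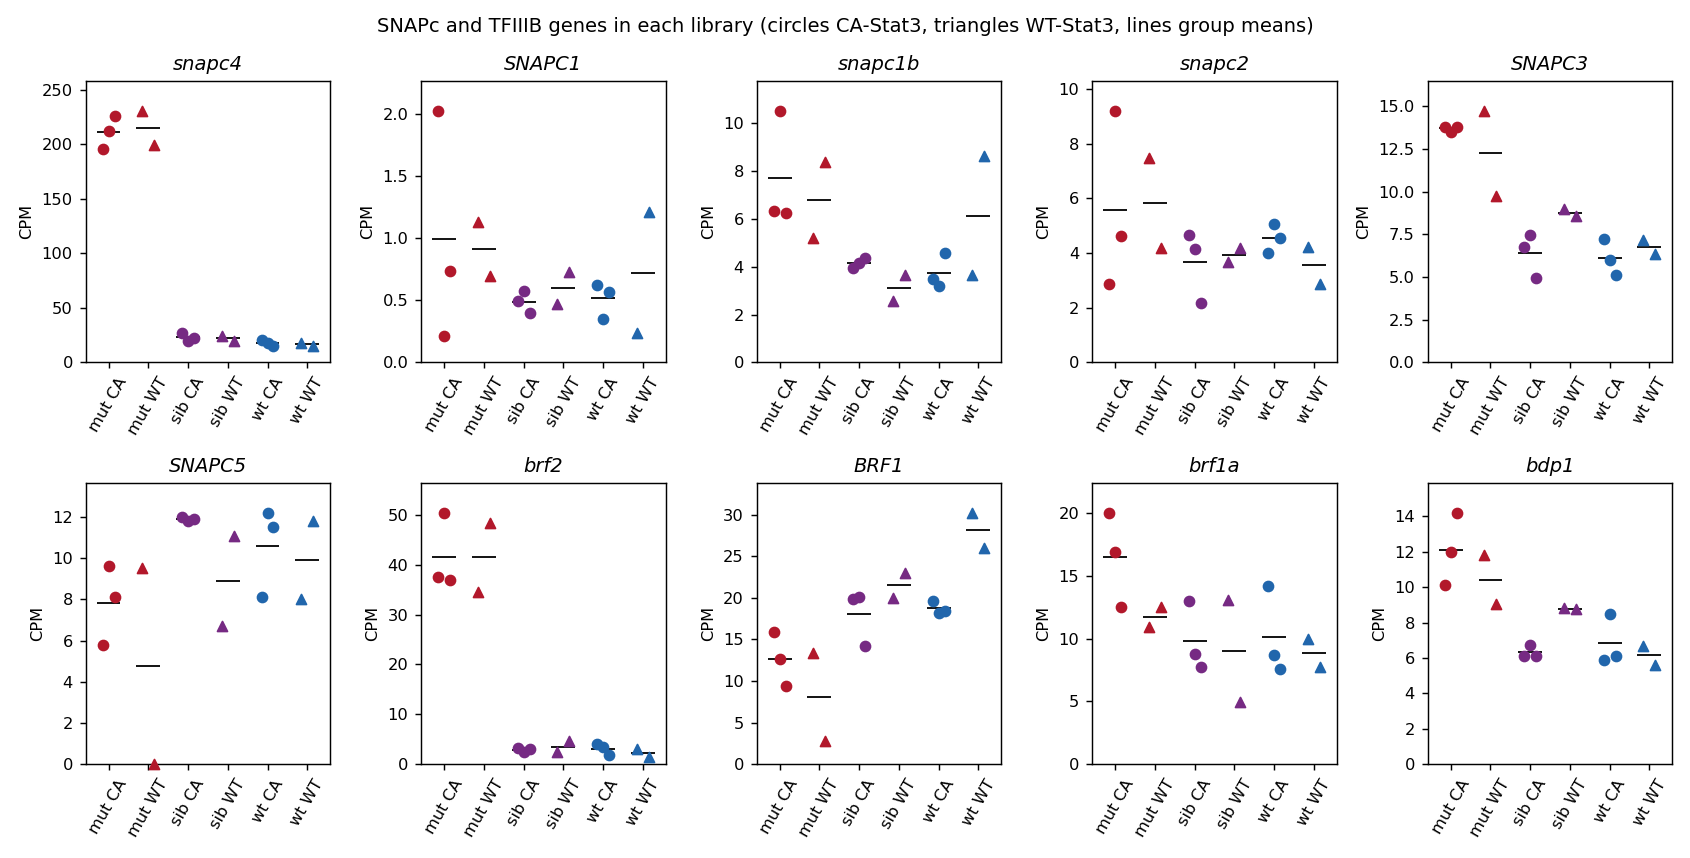
Level in CPM (vertical axis, linear from 0, own scale in each panel) of the 10 SNAPc and TFIIIB rows in each of the 15 libraries, by genotype (mut, mutant; sib, sibling; wt, wildtype) and construct (CA, circles; WT, triangles), with lines at group means. snapc4 and brf2 separate the mutant libraries from the rest by a wide gap, while BRF1 and SNAPC5 have their lowest libraries among mutants.

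Of the remaining SNAPc subunits, SNAPC3 was higher in mutants by both comparisons and snapc1b by one of them. SNAPC3 (ENSDARG00000101474), which in human cells forms the DNA-binding core with SNAPC4 and SNAPC1, had 13.8, 13.5 and 13.8 CPM in mutant CA-Stat3 and 14.7 and 9.76 CPM in mutant WT-Stat3 libraries. It had 6.76, 7.45, 4.94, 8.96 and 8.56 CPM in the sibling libraries and 7.24, 6.0, 5.13, 7.17 and 6.34 CPM in the wildtype libraries, CA-Stat3 before WT-Stat3 in both. Every mutant library lay above every other library, though mutant WT-Stat3 replicate 2, at 28 counts, was close to the highest sibling library. SNAPC3 rose by 1.01 ± 0.20 (log2, SE) in mutants against wildtypes (edgeR BH-adjusted p = 0.00148) and, against siblings, by 0.79 ± 0.20 (edgeR BH-adjusted p = 0.00863). The rise was thus about 2.02-fold and 1.73-fold, against 12.3-fold and 9.42-fold for snapc4.

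SNAPC1 has a pair of rows in zebrafish. snapc1b (ENSDARG00000003827) had 7.33 ± 2.09 CPM in mutants, 3.73 ± 0.689 CPM in siblings and 4.70 ± 2.25 CPM in wildtypes (SD, n = 5 each). Its lowest mutant library, at 5.21 CPM, lay above all sibling libraries, the highest of which had 4.35 CPM. How many of all genes separate mutants from siblings alone in this way was not counted. It was higher in mutants than in siblings by 1.0 ± 0.30 (log2, SE; edgeR BH-adjusted p = 0.0218), a call lost without sibling WT-Stat3 replicate 1 (0.87), mutant CA-Stat3 replicate 2 (0.86) or mutant WT-Stat3 replicate 2 (0.82). Against wildtypes it was at 0.58 ± 0.29 and did not pass the threshold (edgeR BH-adjusted p = 0.143). A single wildtype library, replicate 2 with WT-Stat3, had 8.61 CPM against 3.18 to 4.56 CPM in the other wildtype libraries, and without it the value was 0.96 (edgeR BH-adjusted p = 0.0385). The other row, SNAPC1 (ENSDARG00000029569), had 1 to 14 counts a library, 26 in all 5 mutant, 18 in all 5 sibling and 22 in all 5 wildtype libraries. It did not pass the filter. In the fit without a filter it was at 0.64 against wildtypes (edgeR BH-adjusted p = 0.661) and 0.81 against siblings (edgeR BH-adjusted p = 0.558). It was not called, and whether differences of this size could be detected at so few counts was not tested.

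The accessory subunits snapc2 and SNAPC5 were not called. snapc2 (ENSDARG00000036473) had 2.88 to 9.19 CPM in mutants, 2.17 to 4.67 CPM in siblings and 2.87 to 5.06 CPM in wildtypes, with values of 0.50 ± 0.34 against wildtypes (edgeR BH-adjusted p = 0.284) and 0.58 ± 0.34 against siblings (edgeR BH-adjusted p = 0.221). The ranges of all 3 genotypes overlapped, and the highest values were in mutants. SNAPC5 (ENSDARG00000062476), the smallest subunit in human cells, had 5.77, 9.62 and 8.11 CPM in mutant CA-Stat3 and 9.51 and 0 CPM in mutant WT-Stat3 libraries. Siblings had 6.72 to 12.0 CPM and wildtypes 8.0 to 12.2 CPM. The library without a count was replicate 2, where 3 counts, the limit that a count of 0 allows, correspond to 1.05 CPM. SNAPC5 was at -0.69 ± 0.42 against wildtypes (edgeR BH-adjusted p = 0.242) and -0.69 ± 0.43 against siblings (edgeR BH-adjusted p = 0.249). With CA-Stat3 alone it was at -0.45 ± 0.52 against wildtypes and -0.61 ± 0.52 against siblings, also not called. The values averaged over constructs varied with the mutant WT-Stat3 library left out. Without replicate 2, the one at 0, they were -0.25 and not called. Without replicate 1, which leaves that group at 0 counts, both comparisons were called (edgeR BH-adjusted p = 0.000266 and 0.000348), at a fitted -4.74 that depends on the prior count and is no bound.

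In TFIIIB the rise of brf2 stood beside a fall of BRF1 averaged over constructs, which was not called with CA-Stat3 alone. brf2 (ENSDARG00000002060) had 37.6, 50.4 and 36.9 CPM in mutant CA-Stat3 and 34.6 and 48.4 CPM in mutant WT-Stat3 libraries. It had 3.19, 2.44, 2.96, 2.36 and 4.56 CPM in the sibling libraries and 4.12, 3.41, 1.85, 3.06 and 1.51 CPM in the wildtype libraries, again CA-Stat3 before WT-Stat3. Mutant libraries held 139 to 261 counts of it and the other libraries 10 to 33, so no library of another genotype came near the mutant range. The mean was 41.6 ± 7.27 CPM in mutants, 3.10 ± 0.886 CPM in siblings and 2.79 ± 1.09 CPM in wildtypes (SD, n = 5 each). The log2 fold change was 3.93 ± 0.27 against wildtypes (15.2-fold) and 3.73 ± 0.27 against siblings (13.3-fold). By size of increase against wildtypes brf2 stood at place 43 and snapc4 at place 59 of the 18020 genes tested. The groups ran, from the highest mean, mutant CA-Stat3, mutant WT-Stat3, sibling WT-Stat3, wildtype CA-Stat3, sibling CA-Stat3 and wildtype WT-Stat3, and again only the step down from the mutants separated neighbours.

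BRF1 (ENSDARG00000005002) went the other way. Its levels were 15.9, 12.6 and 9.40 CPM in mutant CA-Stat3 and 13.4 and 2.79 CPM in mutant WT-Stat3 libraries. Siblings had 19.8, 20.1 and 14.2 CPM with CA-Stat3 and 20 and 23 CPM with WT-Stat3, and wildtypes had 19.6, 18.2 and 18.4 CPM with CA-Stat3 and 30.2 and 26.0 CPM with WT-Stat3. All mutant libraries lay below all wildtype libraries, but 1 mutant library lay above the lowest sibling library. How many of all genes separate mutants from wildtypes alone in this way was not counted. BRF1 fell by 1.14 ± 0.27 (log2, SE) against wildtypes (edgeR BH-adjusted p = 0.00462) and, against siblings, by 0.92 ± 0.27 (edgeR BH-adjusted p = 0.0187). These values are averages over constructs. With CA-Stat3 alone BRF1 was at -0.56 ± 0.33 against wildtypes (edgeR BH-adjusted p = 0.268) and was not called. It was at -0.51 ± 0.33 against siblings with CA-Stat3 (edgeR BH-adjusted p = 0.313), also not called. The library at 2.79 CPM, mutant WT-Stat3 replicate 2, held 8 counts of it. Without that library the value against wildtypes was -0.82 and stayed called. Without mutant WT-Stat3 replicate 1 it was -1.94. Against siblings the call was lost without mutant WT-Stat3 replicate 2 (-0.60) or without sibling WT-Stat3 replicate 2 (-0.89).

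brf1a (ENSDARG00000017835), the second zebrafish BRF1 row, did not share that direction. It had 10.9 to 20 CPM in mutants, 4.92 to 13.1 CPM in siblings and 7.55 to 14.2 CPM in wildtypes, and the ranges overlapped. Its values of 0.55 ± 0.28 against wildtypes (edgeR BH-adjusted p = 0.153) and 0.54 ± 0.28 against siblings (edgeR BH-adjusted p = 0.162) were not called. Against siblings the value was 0.98 and called without sibling WT-Stat3 replicate 1 (edgeR BH-adjusted p = 0.0268), and 0.27 and not called without sibling WT-Stat3 replicate 2. How reads shared by these paralogs were counted is not given in the sources used here.

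bdp1 (ENSDARG00000102375), the subunit common to both forms of TFIIIB, had 10.1, 12.0 and 14.2 CPM in mutant CA-Stat3 and 11.8 and 9.06 CPM in mutant WT-Stat3 libraries. Sibling libraries had 6.14, 6.74, 6.12, 8.84 and 8.75 CPM and wildtype libraries 5.87, 8.47, 6.13, 6.70 and 5.59 CPM, CA-Stat3 before WT-Stat3. Every mutant library was above every other library, by a margin of 9.06 against 8.84 CPM at the closest point. bdp1 rose by 0.79 ± 0.20 (log2, SE) against wildtypes (edgeR BH-adjusted p = 0.00787) and, against siblings, by 0.59 ± 0.20 (edgeR BH-adjusted p = 0.0395). The call against siblings was fragile. It was lost without any 1 of the 5 sibling libraries, without mutant CA-Stat3 replicate 2 or 3, or without mutant WT-Stat3 replicate 1, at values of 0.48 to 0.61.

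The balance of the BRF rows within a library does not depend on scaling to other genes. brf2 made up 51.2% to 76.0% of the summed brf2, BRF1 and brf1a counts in the mutant libraries, 6.64% to 14.0% in siblings and 4.29% to 11.2% in wildtypes. The exact (Clopper-Pearson) 95% interval was 46.7% to 55.6% for the lowest mutant library and 9.3% to 20% for the highest sibling library. In counts, a mutant library held 1.05 to 3.16 brf2 counts for each count of the BRF1 rows, against 0.0712 to 0.163 in siblings and 0.0448 to 0.127 in wildtypes. snapc4 made up 83.2% to 89.6% of the counts of the 6 SNAPc rows in mutants, 41.1% to 51.8% in siblings and 33.1% to 47.2% in wildtypes. The interval was 80.9% to 85.2% for the lowest mutant library and 46.7% to 56.8% for the highest sibling library. These are shares of counts, not of molecules, since the rows were not corrected for transcript length, and the intervals and the limit for a count of 0 cover counting error only. Because brf2 and snapc4 were chosen for their higher counts in mutants, the gap in these shares is a description, and the intervals are no test of it.

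**Figure D2:**
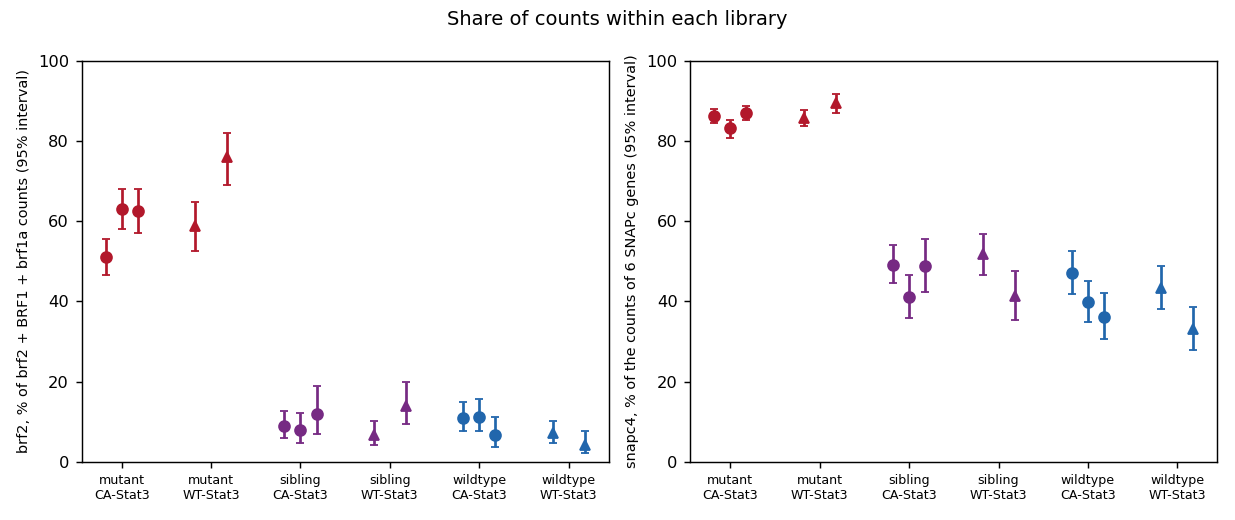
Share of counts within each library (percent, axis from 0) taken by brf2 among brf2, BRF1 and brf1a (left) and by snapc4 among the 6 SNAPc rows (right), by group, with exact 95% binomial intervals of single libraries. The lowest mutant shares, 51.2% and 83.2%, lie above the highest shares of any other library, 14.0% and 51.8%. Both genes were chosen for their higher counts in mutants, so this gap is a description.

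Counted over the 7 members that were taken by name and tested, 2 were higher (SNAPC3 and bdp1), 1 was lower (BRF1) and 4 were not called in mutants against wildtypes. That is 42.9% of them, where edgeR with Benjamini-Hochberg (BH) adjustment and a threshold of 0.05 called 28.7% of all genes, 13.9% as higher and 14.8% as lower. Their median log2 fold change was 0.55, against -0.03 over all genes. Against siblings 3 were higher (SNAPC3, snapc1b and bdp1) and 1 was lower (BRF1), 57.1% of the members. The background was 26.2% of all genes called, 12.4% as higher and 13.9% as lower. The median against siblings was 0.58 for the members and -0.02 over all genes. So few members cannot show whether these shares differ from the background, and this was not tested. Among all genes tested, 6.17% had every mutant library above every sibling and wildtype library, as did 2 of the 7 members taken by name, SNAPC3 and bdp1. snapc4 and brf2 also did, but they had been chosen for it. The reverse held for 4.85% of genes and for 0 of the 7 members. The mutants are shared by both comparisons, so their results are not independent.

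Within each construct the sizes for snapc4 and brf2 were close to these averages. Against wildtypes snapc4 was at 3.56 ± 0.19 with CA-Stat3 and 3.69 ± 0.23 with WT-Stat3, and brf2 was at 3.71 ± 0.33 and 4.14 ± 0.42 in the same order. With CA-Stat3, SNAPC3 (1.16 ± 0.25, edgeR BH-adjusted p = 0.00548) and bdp1 (0.82 ± 0.25, edgeR BH-adjusted p = 0.0364) rose against wildtypes, in a comparison that called 14.7% of all genes. With WT-Stat3 only BRF1 was called, at -1.72 ± 0.42 (edgeR BH-adjusted p = 0.0158), where 12.1% of all genes were called. Against siblings SNAPC3 (1.09 ± 0.25, edgeR BH-adjusted p = 0.00858) and bdp1 (0.93 ± 0.25, edgeR BH-adjusted p = 0.021) rose with CA-Stat3, beside 15.8% of all genes. With WT-Stat3, where 7.48% of all genes were called, 0 of these 7 members were called by edgeR, and 2 had an unadjusted p under 0.05, snapc1b (0.0318) and BRF1 (0.00618).

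Whether siblings already differ from wildtypes was tested too. snapc4 and brf2 were picked for higher counts in mutants than in these same libraries, so for them the test is not fully independent of that choice. snapc4 averaged 22.7 CPM in siblings and 17.4 CPM in wildtypes. Its value was 0.39 ± 0.14 (log2, SE), with an unadjusted p of 0.0141 and an edgeR BH-adjusted p of 0.486. With CA-Stat3 the sibling and wildtype libraries overlapped, while with WT-Stat3 both siblings (24.1 and 19.9 CPM) lay above both wildtypes (17.9 and 15.3 CPM). An order among so few libraries is a description and no test. brf2 was at 0.19 ± 0.29 (edgeR BH-adjusted p = 0.869). edgeR called 0 of the 9 members and 0 of all genes (0%) here, although 1712 genes (9.5%) had an unadjusted p under 0.05. snapc4 was the only member of these 9 with such a p. DESeq2 called 13 genes and limma 0, with 0 members in either. Without the filter on low counts edgeR called 258 of 27820 genes in this comparison.

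The active form of Stat3 was then compared with the wildtype form. In mutants snapc4 averaged 211 ± 15.4 CPM with CA-Stat3 (SD, n = 3) and lay at 230.3 and 199 CPM with WT-Stat3, a difference of -0.02 ± 0.19 (log2, SE; edgeR BH-adjusted p = 0.976). brf2 averaged 41.6 ± 7.63 CPM with CA-Stat3 (SD, n = 3) and lay at 34.6 and 48.4 CPM with WT-Stat3, a difference of 0.01 ± 0.32 (edgeR BH-adjusted p = 0.995). For this construct comparison BRF1 was at 0.58 ± 0.40 in mutants (edgeR BH-adjusted p = 0.622), -0.25 ± 0.36 in siblings (edgeR BH-adjusted p = 0.999) and -0.58 ± 0.35 in wildtypes (edgeR BH-adjusted p = 0.998). In mutants the value rested on the WT-Stat3 libraries, at 13.4 and 2.79 CPM. It was 2.18 and called without replicate 1 (edgeR BH-adjusted p = 0.0215), and -0.08 and not called without replicate 2. In wildtypes all 3 CA-Stat3 libraries (18.2 to 19.6 CPM) lay below both WT-Stat3 libraries (30.2 and 26.0 CPM). With so few libraries this order is a description, and the test did not call it.

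edgeR called 0 of the 9 members and 0% of all genes for CA-Stat3 against WT-Stat3, averaged over genotypes or within mutants, siblings or wildtypes. At an unadjusted p under 0.05 there were 0 members in each of these comparisons, and 725 to 2286 genes (4.02% to 12.7%). Chance alone would give a share of genes near 0.05. DESeq2 called 1 to 116 genes and limma 0 to 1, with 0 members in either. The 0% of edgeR depended on the filter on low counts. Without it edgeR called, of 27820 genes, 386 averaged over genotypes, 110 in mutants, 8 in siblings and 13 in wildtypes. The difference of the construct effect between mutants and wildtypes, or between mutants and siblings, was called by edgeR for 0 members and 0% of all genes too. At an unadjusted p under 0.05 there were 929 (5.16%) and 992 (5.5%) genes. DESeq2 called 1 and 0 genes and limma 0 in both, with 0 members in either, and edgeR without the filter called 8 and 10 genes. BRF1 had the largest such difference, 1.16 ± 0.53 between mutants and wildtypes, with an unadjusted p of 0.0445 and an edgeR BH-adjusted p of 0.926. For snapc4 it was -0.14 ± 0.28 and for brf2 -0.43 ± 0.51 between mutants and wildtypes (edgeR BH-adjusted p = 0.968 and 0.944).

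**Figure D3:**
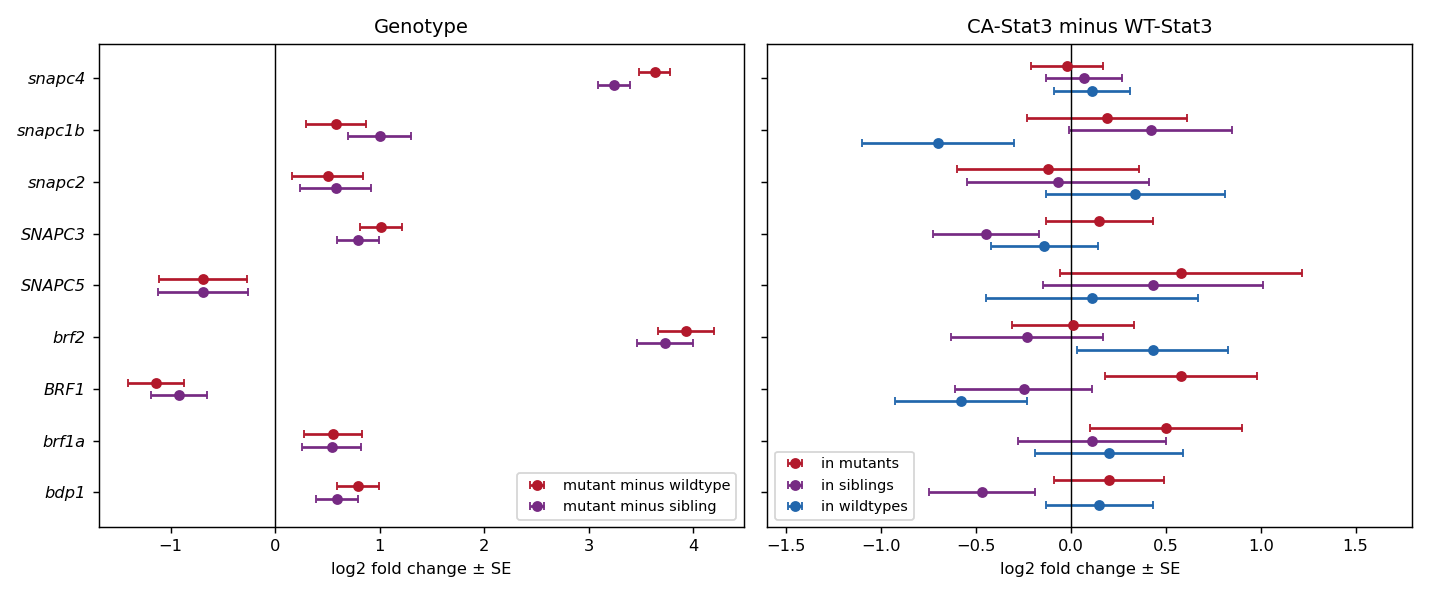
Log2 fold change ± SE (horizontal axis) of the 9 tested SNAPc and TFIIIB rows. Left, mutants against wildtypes and against siblings; right, CA-Stat3 against WT-Stat3 in each genotype, on a narrower axis. snapc4 and brf2 lie at 3.24 to 3.93 for genotype and between -0.23 and 0.43 for construct.

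The partners of these factors were read from 8 lists of genes that work beside them. Of 76 genes tested over the lists, 29 were higher and 5 lower in mutants than in wildtypes, and 24 were higher and 5 lower than in siblings, by edgeR at a BH-adjusted p under 0.05. Of all genes tested, 13.9% were higher and 14.8% lower than in wildtypes, and 12.4% were higher and 13.9% lower than in siblings. The counts of each list are to be read against these shares. Because the lists were chosen with earlier results of these data known, the counts describe them and are no test of a pathway-wide rise. Where 0 genes of a list are given as lower than in wildtypes, DESeq2 also called 0, limma called 0 except for 1 RNA polymerase III gene, and 0 had an unadjusted p under 0.05 except for 1 gene of particle assembly. Beside brf2 and bdp1, the common TFIIIB subunit TBP rose to 17.1 ± 2.58 CPM in mutants, against 9.59 ± 2.47 CPM in wildtypes (SD, n = 5 each; 0.91 ± 0.20, edgeR BH-adjusted p = 0.00357). The list of TBP and MAF1 genes had 3 of 4 higher and 0 lower, with a median of 0.91. It included maf1a (0.91 ± 0.20) and TBPL1 (0.95 ± 0.31), a TBP-related factor whose call was lost in 7 of 23 alternatives, including limma and 5 left-out libraries. The human counterpart of maf1a and MAF1 represses RNA polymerase III, and these rows differed. maf1a had 28.6 ± 3.34 CPM in mutants and 15.7 ± 4.25 CPM in wildtypes (SD, n = 5 each; edgeR BH-adjusted p = 0.00264). MAF1 was at -0.21 ± 0.13 and did not pass the threshold (edgeR BH-adjusted p = 0.256). Against siblings 2 of these 4 were higher, and 0 to 2 over the alternatives, where TBP kept its call in 13 of 23 and maf1a in 7 of 23.

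The assembly factors TFIIIC and TFIIIA, which bring TFIIIB to transfer RNA and 5S RNA genes, had 3 of 6 genes higher and 0 lower (median 0.81). They were GTF3A at 1.15 ± 0.19, GTF3C3 at 0.94 ± 0.23 and GTF3C4 at 0.80 ± 0.23, the last without a call when wildtype WT-Stat3 replicate 2 or the filter was left out. Of 12 RNA polymerase III subunit genes, some of them shared with RNA polymerase I, 7 were higher and 0 lower (median 0.80). POLR3B, the second largest subunit, was at 39.9 ± 4.0 CPM in mutants and 20.1 ± 2.84 CPM in wildtypes (0.98 ± 0.15), and POLR3E rose by 0.77 ± 0.15. polr3gla had 7.75 ± 2.48 CPM in mutants and 1.39 ± 0.446 CPM in wildtypes and rose by 2.45 ± 0.39, while its paralog polr3glb had 5.62 ± 3.42 CPM in mutants and 9.45 ± 0.641 CPM in wildtypes and was not called by edgeR (-0.77 ± 0.37, BH-adjusted p = 0.126) but was called lower by limma (-1.23). POLR3D had 0 counts in all 15 libraries. Against siblings 3 of the 6 and 6 of the 12 genes were higher, and GTF3C4 (0.38) was not called.

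Other lists hold genes that act with SNAPc at small nuclear RNA genes or on their transcripts. The activators POU2F1, ZNF143 and relatives had 0 of 5 genes higher and 0 lower than in wildtypes by edgeR, DESeq2 and limma (median 0.23), and 0 had an unadjusted p under 0.05. Against siblings POU2F1 fell by 0.38 ± 0.13 (edgeR BH-adjusted p = 0.0413), a call kept in only 10 of 23 alternatives. The little elongation complex, which in human cells attends small nuclear RNA transcription, had 3 of 6 higher and 0 lower (median 0.51). Its scaffold ice1 rose to 138 ± 15.0 CPM in mutants, against 12.2 ± 3.24 CPM in wildtypes (SD, n = 5 each; 3.57 ± 0.17, edgeR BH-adjusted p = 1.97e-09). ICE2 rose by 1.17 ± 0.21 and ELL2 by 0.70 ± 0.18. By edgeR 2 of these 6 genes were higher and 0 lower than in siblings, where ELL2 (0.44) was not called. Integrator, which cleaves the 3′ ends of small nuclear RNA precursors, had 4 of 19 higher and 3 lower (median 0.07). Those with the smallest p were INTS6L (-1.30 ± 0.21), ints6 (-1.36 ± 0.23), INTS5 (1.55 ± 0.30) and INTS15 (0.92 ± 0.21), and the paralogs ints6 and INTS6L may share reads. The Integrator counts against siblings were 4 higher and 3 lower.

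Factors that take the small nuclear RNAs onward had 5 of 15 higher and 0 lower in mutants against wildtypes (median 0.42). They included coil, the scaffold protein of Cajal bodies, at 31.0 ± 7.92 CPM in mutants and 8.19 ± 1.31 CPM in wildtypes (1.89 ± 0.20), and SNUPN, the import adaptor of assembled particles, at 36.2 ± 6.56 CPM in mutants and 10.8 ± 3.35 CPM in wildtypes (1.76 ± 0.23). GEMIN2 rose by 0.87 ± 0.21 and PRMT5 by 0.40 ± 0.13. PRMT5 was not called without wildtype WT-Stat3 replicate 1, wildtype CA-Stat3 replicate 2, mutant WT-Stat3 replicate 2 or the filter. The fifth gene, STRAP (0.42 ± 0.15), kept its call in 7 of 23 alternatives and was named after its values were seen. Of these 15 genes, 3 were higher and 0 lower than in siblings, where GEMIN2 (0.30) and PRMT5 (0.18) were not called. Proteins that bind or trim the ends of U6 and related RNAs had 4 of 9 higher and 2 lower (median 0.36). SSB, the La protein that binds new RNA polymerase III transcripts, rose to 395 ± 99.0 CPM in mutants, against 49.9 ± 3.45 CPM in wildtypes (2.96 ± 0.17, edgeR BH-adjusted p = 5.8e-09). TOE1, a 3′ end nuclease, rose by 2.09 ± 0.23 and SART3, which anneals U4 to U6, by 0.97 ± 0.15. The lower genes were both MEPCE rows, for the enzyme that caps the 5′ end of a related RNA. They were at -0.71 ± 0.16 and -0.48 ± 0.17, and the second kept its call in only 11 of 23 alternatives. Of these 9 genes, 4 were higher and 1 was lower than in siblings.

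**Figure D4:**
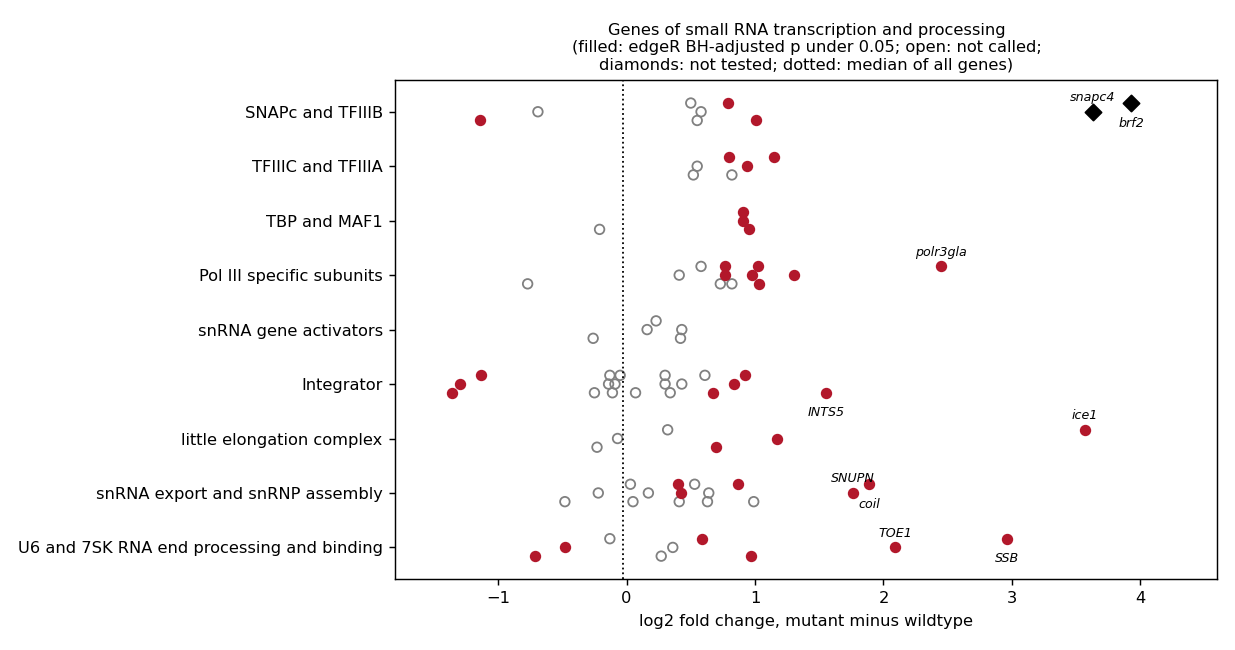
Log2 fold change of mutants against wildtypes (horizontal axis) for each tested gene of the SNAPc and TFIIIB set and of 8 lists of partner genes; names are given beyond 1.5 in either direction. Called genes lie mostly to the right of the median of all genes (dotted, -0.03), with Integrator genes on both sides. The lists were chosen with earlier results of these data known.

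The genes most like snapc4 and brf2 across the 15 libraries were found by Pearson correlation of log2 CPM among 14245 genes with a symbol and an average log2 CPM of at least 1. For snapc4 they included SSB (0.991), ice1 (0.991), PRPF3 (0.989) and PRPF31 (0.989). PRPF3 and PRPF31 are parts of the U4/U6 particle. For brf2 they were si:dkey-204l11.1 (0.983), snapc4 (0.981), PRPF31 (0.979), AQR (0.979), a helicase of the spliceosome, and mdm2 (0.978), a ubiquitin ligase. brf2 stood at place 17 for snapc4, but both were chosen for higher counts in mutants, so their likeness to each other follows in part from that choice. SNAPC3 (0.889, place 456) and bdp1 (0.838, place 787) came next among the members, and BRF1 (-0.692) and SNAPC5 (-0.457) ran opposite. The genotype difference makes up most of each correlation, the libraries share their depth and scaling between genes, and the first places are close. With mutant WT-Stat3 replicate 2 left out, 2 of the first 5 genes were shared for snapc4 and 1 of 5 for brf2.

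Genes beside snapc4 and brf2 in the chromosome order of the RefSeq annotation of GRCz12tu, an assembly other than the GRCz10 of the files, did not all move with them. On the sides of snapc4, CARD9 (-0.42 ± 0.49, edgeR BH-adjusted p = 0.558), ENTR1 (0.52 ± 0.30, edgeR BH-adjusted p = 0.208) and UBAC1 (0.35 ± 0.18, edgeR BH-adjusted p = 0.152) were not called in mutants against wildtypes. ccdc180, beyond CARD9, rose by 2.47 ± 0.42 at a low level, 8.20 ± 2.75 CPM in mutants and 1.53 ± 0.275 CPM in wildtypes (SD, n = 5 each; edgeR BH-adjusted p = 0.00046). Beside brf2, rab11fip1b was at -0.55 ± 0.27 and did not pass the threshold (edgeR BH-adjusted p = 0.142). The next gene, ESS2, which encodes a protein bound to the spliceosome, rose to 94.2 ± 12.3 CPM in mutants, against 21.4 ± 1.92 CPM in wildtypes (2.16 ± 0.14, edgeR BH-adjusted p = 3.31e-08). On the other side adrb3b and prlhr2b were too low to be tested.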

How the data were processed

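The libraries were made from poly(A)-primed RNA of isolated kdrl-positive cells by a low-input method, per the labels' protocols. The deposited table holds the authors' raw read counts for each Ensembl gene identifier, and every column was matched to its library (0 columns lacked a sample). Processing notes of the submitters list the build GRCz10 and, in no stated role, featureCounts, STAR 2.4.2a, Trim Galore, Picard and DESeq2. Strand, duplicate and multi-mapping settings could not be read from the labels. Symbols were found for 26269 of 32105 identifiers, some of them in capitals. No sequences were used, and annotated positions served only to order neighbouring genes.

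Counts of all 15 libraries entered a single edgeR 4.0.16 fit (R 4.3.3) with a coefficient per group, TMM scaling, filterByExpr (minimum count 10, total 15), the quasi-likelihood test, 9 residual degrees of freedom and BH adjustment over 18020 genes. Each SE was obtained by dividing the size of the log2 fold change by the root of F. CPM values for correlations were logged with a prior count of 2. The procedure was run on simulated data with few changed genes and the same spread for every gene. These data differ in both respects, so that run does not show how accurate the calls are. Members, lists and tests were chosen with earlier results of these data known. Genes of a list were named by smallest p, up to 4 a list, with TBP, MAF1 and rows at 0 always named. polr3glb was added after its value was seen. Some genes that met these rules are not reported here. Alternatives were DESeq2 1.42.0, limma 3.58.1 (voom), RLE scaling, no filter, a filter of 1 CPM in 5 libraries and 50 counts in all, fits on the compared libraries alone, a replicate block, removal of the 3 most abundant rows, and omission of each library.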

Additional observations from a re-analysis of the deposited data

Results flagged for a closer look

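Among 30 combinations of a member and a genotype, 3 single libraries stood apart from the other 4 of their genotype by the size of their gap, and chance flags about 1 in 20. snapc1b had 8.61 CPM (57 counts) in wildtype WT-Stat3 replicate 2, against 3.18 to 4.56 CPM in the other wildtype libraries. SNAPC3 had 9.76 CPM (28 counts) in mutant WT-Stat3 replicate 2, the shallowest library, against 13.5 to 14.7 CPM in the other mutant libraries. SNAPC5 had 6.72 CPM (57 counts) in sibling WT-Stat3 replicate 1, against 11.1 to 12.0 CPM in the other sibling libraries.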

How the results depend on the processing

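Against wildtypes, SNAPC3, BRF1 and bdp1 kept their calls under all 23 alternatives, and the count of members taken by name ranged from 3 to 4. Against siblings that count was 2 to 4 over the left-out libraries (4 in the main result). For CA-Stat3 against WT-Stat3 the count of 0 changed only without mutant WT-Stat3 replicate 1. It did so averaged over genotypes, in mutants and for the construct difference between mutants and siblings. The members concerned were SNAPC5 in all 3 and BRF1 (2.18) in mutants, and many genes outside the set were called in that fit too. The lone library left in the group, with 0 counts of SNAPC5 and 8 of BRF1, is assumed to vary like the others. For pathway genes against siblings, the counts over left-out libraries were 15 (without sibling WT-Stat3 replicate 2) to 22 higher and 2 to 6 lower, and 3 were lower with own libraries only and with limma. The log2 fold changes of snapc4 ranged from 3.56 to 3.69 and of brf2 from 3.74 to 4.24 against wildtypes. bdp1 against siblings was also not called without the filter (0.55) or with own libraries only (0.58). The replicate numbers were not taken to pair the libraries, because the labels do not say that they do. Of same-numbered pairs of different groups, 9 of 33 had deviations correlated above 0.1. That share was lower among different-numbered pairs, 5 of 60. As a hint of pairing from the data, 12 of 15 libraries were closest to their own number, and the median correlation was 0.08 for the same number and -0.03 for different numbers. With the number as a replicate block, 3 members taken by name were called against wildtypes, 4 against siblings and 0 in the other comparisons. Over all genes that block called 5467 against wildtypes (5169 without it) and 28 for CA-Stat3 against WT-Stat3 averaged over genotypes (0 without it). Of the genes most like snapc4 and brf2, 1 and 0 of 5 were shared when Spearman correlation was used. No result that was called changed its direction.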
